A study of Macaca mulatta with 18 samples.

Results

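The cyclic nucleotide phosphodiesterases described here were 10 genes chosen by symbol: PDE10A, PDE1A, PDE1B, PDE1C, PDE2A, PDE4B, PDE4D, PDE7B, PDE8B and PDE9A. Each symbol matched 1 row of the authors' deposited table of every brain region, so that 10 of 30245 genes were followed. RNA was sequenced from the striatum (STR), the cerebellum (CER) and the prefrontal cortex (PFC), taken after death from 3 Indian-origin rhesus monkeys aged 7.5, 15 and 16 years and 3 Chinese-origin rhesus monkeys aged 10.5, 11 and 11.5 years. All 6 monkeys ate the same stock diet with fruits and vegetables. The Indian-origin monkeys were born at the primate center and the Chinese-origin monkeys arrived there as young adults, so origin, early life and age cannot be told apart. Expression was given in FPKM, the number of sequenced fragments scaled by gene length and library size, with 1 value per gene, region and origin pooled over the 3 monkeys. No values of single monkeys were analysed here. Differences between monkeys of an origin therefore cannot be seen, no value below has an SD, and no test was made.

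Cyclic AMP and cyclic GMP carry signals from receptors and from nitric oxide inside neurons, and phosphodiesterases end these signals by hydrolyzing the cyclic nucleotides. PDE4, PDE7 and PDE8 enzymes act on cAMP, PDE9 acts on cGMP, and PDE1, PDE2 and PDE10 enzymes act on both. PDE1 enzymes are switched on by calcium and calmodulin, and PDE2A by cGMP. In the striatum, dopamine and adenosine receptors of the medium spiny neurons work through cAMP, and PDE10A is known as an enzyme of these neurons.

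The regions were checked by their marker genes. All 10 listed markers of striatal projection neurons, among them DRD1, DRD2 and ADORA2A, were at least 2-fold higher in STR than in PFC in both origins. Of 10 cerebellar granule and Purkinje cell markers, 9 were at least 2-fold higher in CER than in PFC. In STR, 9 of 10 excitatory cortical neuron markers were at least 2-fold lower than in PFC. Of all genes, 3.52% were at least 2-fold higher and 4.98% lower in STR than in PFC in both origins. In CER, 9.32% of all genes were at least 2-fold higher than in PFC. The exception among the cortical markers was LAMP5, which was higher in STR. The cortical markers differed by origin within STR, and those values are given beside PDE1A. In these bulk tissues, fewer cells of a type and less RNA per cell cannot be told apart.

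**Figure D1:**
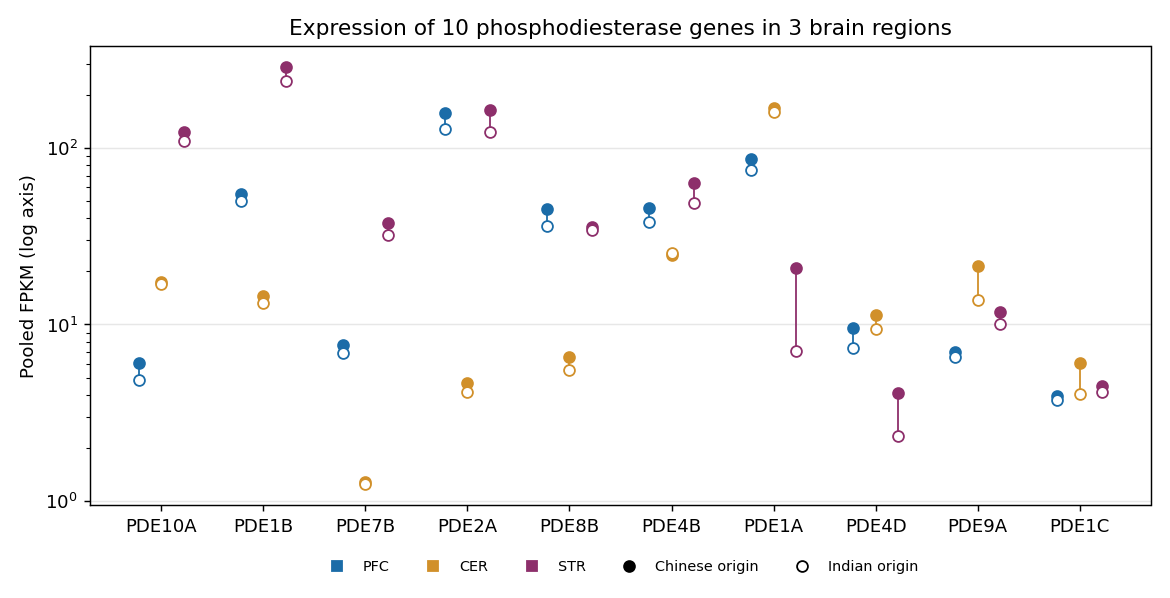
Pooled FPKM on a log axis for each of the 10 genes in PFC (blue), CER (orange) and STR (purple). Filled points are Chinese-origin and open points Indian-origin values, each pooled over 3 monkeys, and a line joins the origins. PDE1B in STR reached 289.5, whereas PDE7B in CER was at 1.29 and 1.24.

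PDE10A, PDE1B and PDE7B were more than 2-fold higher in STR than in either other region. PDE10A, which hydrolyzes both cyclic nucleotides, reached 124 FPKM in the STR of Chinese-origin monkeys and 110.3 in that of Indian-origin monkeys. Its levels were 17.5 and 16.9 in CER, and 6.04 and 4.85 in PFC, again Chinese origin first. STR was thus the highest region and PFC the lowest in both origins. PDE1B, one of the calcium-stimulated enzymes, shares its locus entry with PPP1R1A, so that reads of the pair may not be separable. It reached 289.5 FPKM in the STR of Chinese-origin monkeys and 239 in that of Indian-origin monkeys, the highest levels of any phosphodiesterase in any region. In PFC it was 54.9 and 50.0, and in CER 14.5 and 13.2. PDE7B, a cAMP enzyme, had an FPKM of 37.8 and 32.4 in STR, 7.60 and 6.87 in PFC, and 1.29 and 1.24 in CER. PDE1B and PDE7B therefore had the order STR, PFC, CER, and PDE10A the order STR, CER, PFC.

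PDE2A and PDE8B had similar levels in PFC and STR and far lower levels in CER. The FPKM of PDE2A, the cGMP-stimulated enzyme, was 158 and 128 in PFC, 165 and 124 in STR, and 4.68 and 4.12 in CER. Its PFC and STR levels differed less between the regions than between the origins. PDE8B, a cAMP enzyme of high affinity, had an FPKM of 45.1 and 36.4 in PFC, 35.9 and 34.6 in STR, and 6.51 and 5.52 in CER. The identifier of its row has another name in the reference gene names, and its status entry is a failed test. PDE4B, a cAMP enzyme that is a target of rolipram, had the same direction in a milder form. It stood at 63.1 and 48.9 in STR, 46.1 and 38.1 in PFC, and 24.8 and 25.5 in CER.

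PDE1A had the reverse order of its relative PDE1B. Its FPKM was 169 and 161 in CER, the highest level of any phosphodiesterase in that region, and 87.2 and 75.02 in PFC. In STR it was 21.0 against 7.07, so that Chinese-origin monkeys had 2.97 times the level of Indian-origin monkeys. PDE4D, another rolipram-sensitive cAMP enzyme, was also lowest in STR, with 4.10 and 2.33 there, 9.605 and 7.38 in PFC, and 11.3 and 9.44 in CER. PDE9A, which hydrolyzes cGMP with high affinity, was highest in CER with 21.4 and 13.8, against 11.7 and 10.1 in STR and 6.999 and 6.58 in PFC. PDE1C, the third calcium-stimulated enzyme, was low in all regions, from 3.75 in Indian-origin PFC to 6.08 in Chinese-origin CER. The Indian-origin values of PDE1C were 3.75, 4.02 and 4.12 in PFC, CER and STR, so that its regions had no clear order.

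The place of a gene among all genes of its own column does not depend on how the regions were scaled against each other. Among genes with an FPKM of at least 1, PDE10A lay at percentiles 91.3 and 91.5 in STR, but at 25.6 and 22.4 in PFC. PDE1B lay at 96.7 and 96.3 in STR and at 42.0 and 41.3 in CER. PDE2A lay at 93.5 and 92.8 in PFC and at 18.6 and 16.8 in CER. PDE1A lay at 93.6 and 93.7 in CER, but at 57.6 against 31.9 in STR, the widest gap between origins of any of the 10 genes.

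Regions were then compared as log2 ratios of FPKM + 0.1, less the median ratio of all genes, within each origin. The regions were estimated in separate runs and lanes, so a difference between regions and one between runs cannot be told apart for all genes together. Between STR and PFC, 3 of the 10 genes were at least 2-fold higher in STR in both origins, where 3.52% of all genes were, and 2 were at least 2-fold lower, where 4.98% of all genes were. With Chinese origin first, the log2 ratio of STR over PFC was 4.28 and 4.50 for PDE10A, 2.34 and 2.28 for PDE1B, and 2.24 in both for PDE7B. PDE10A stood at percentile 99.1 of all genes in this contrast. The lower genes were PDE1A, at -2.10 and -3.37, and PDE4D, at -1.26 and -1.60. PDE2A lay at 0.01 and -0.03, so that STR and PFC held nearly the same level.

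Between CER and PFC, 1 gene was at least 2-fold higher in CER in both origins, with a background of 9.32% of all genes, and 4 were at least 2-fold lower, with a background of 11%. The higher gene was PDE10A, with log2 ratios of 1.36 and 1.54. PDE2A was the farthest below, at -5.20 and -5.17, which placed it at percentile 0.943 of all genes. PDE8B followed at -2.93 and -2.94, PDE7B at -2.63 and -2.62, and PDE1B at -2.07 and -2.15. PDE1A lay at 0.80 and 0.86 and PDE9A at 1.44 and 0.81, so that neither passed in both origins.

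Between STR and CER, 6 of the 10 genes were at least 2-fold higher in STR in both origins, where 12.7% of all genes were. They were PDE2A, PDE7B, PDE1B, PDE10A, PDE8B and PDE4B. Another 2, PDE1A and PDE4D, were at least 2-fold lower, where 10.4% of all genes were. The log2 ratio of STR over CER was 5.22 and 5.17 for PDE2A, 4.88 and 4.90 for PDE7B, and -2.89 and -4.198 for PDE1A. The sign of the ratio was the same in both origins for 9 of the 10 genes in each of the contrasts. The exceptions were PDE2A between STR and PFC and PDE1C in the other contrasts.

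**Figure D2:**
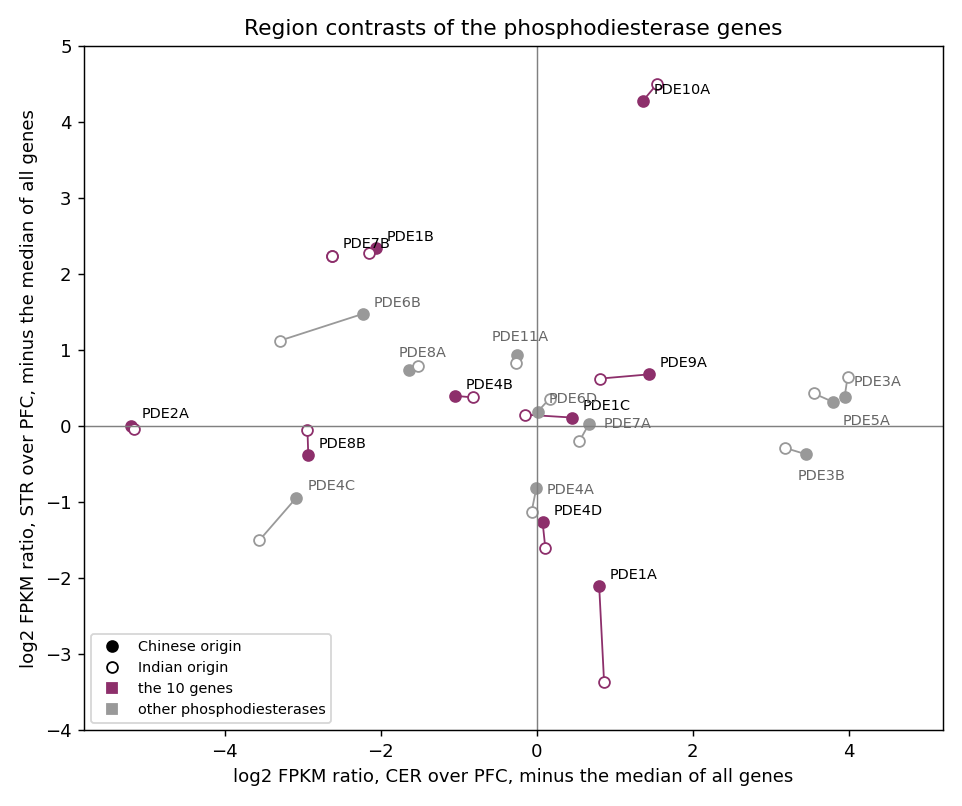
Each phosphodiesterase by its log2 FPKM ratio of CER over PFC (horizontal) and STR over PFC (vertical), both less the median of all genes. Filled points are Chinese-origin and open points Indian-origin values, and a line joins the origins. Purple marks the 10 genes and grey the other phosphodiesterases with an FPKM of at least 1 in both contrasts. Of the genes shown, PDE10A is alone at the top, PDE2A is at the far left, and PDE1A has the longest vertical line, from -3.37 to -2.10. PDE6H is not shown because it stayed below 1 FPKM in CER and PFC. Its log2 ratio of STR over PFC was higher still, at 5.38 and 4.79.

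The calcium-stimulated enzymes exchanged places between regions. PDE1B made up 91.9% and 95.5% of the summed PDE1 FPKM in STR, Chinese origin first here and below. PDE1A made up 89.1% and 90.4% in CER. In PFC the genes were mixed, with PDE1A at 59.7% and 58.3% and PDE1B at 37.6% and 38.8%. The ratio of PDE1B to PDE1A was 0.629 and 0.666 in PFC and 0.0859 and 0.0818 in CER. It was 13.8 and 33.9 in STR, where PDE1A differed more between the origins than PDE1B did. PDE1C never exceeded 3.21% of the sum.

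The family as a whole was set against these genes with 14 further phosphodiesterase genes, a list of 24 in all. Its summed FPKM was 898 and 726 in STR, 534 and 450.3 in PFC, and 431 and 391 in CER. The 10 genes made up 84.2% and 84.4% of it in STR, 79.7% and 79.4% in PFC, and 64.4% and 65.2% in CER. The leading gene was PDE2A in PFC, with 29.6% and 28.5% of the sum, PDE1A in CER, with 39.3% and 41.3%, and PDE1B in STR, with 32.2% and 33.0%. PDE10A took 13.8% and 15.2% of the sum in STR against 1.13% and 1.08% in PFC.

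**Figure D3:**
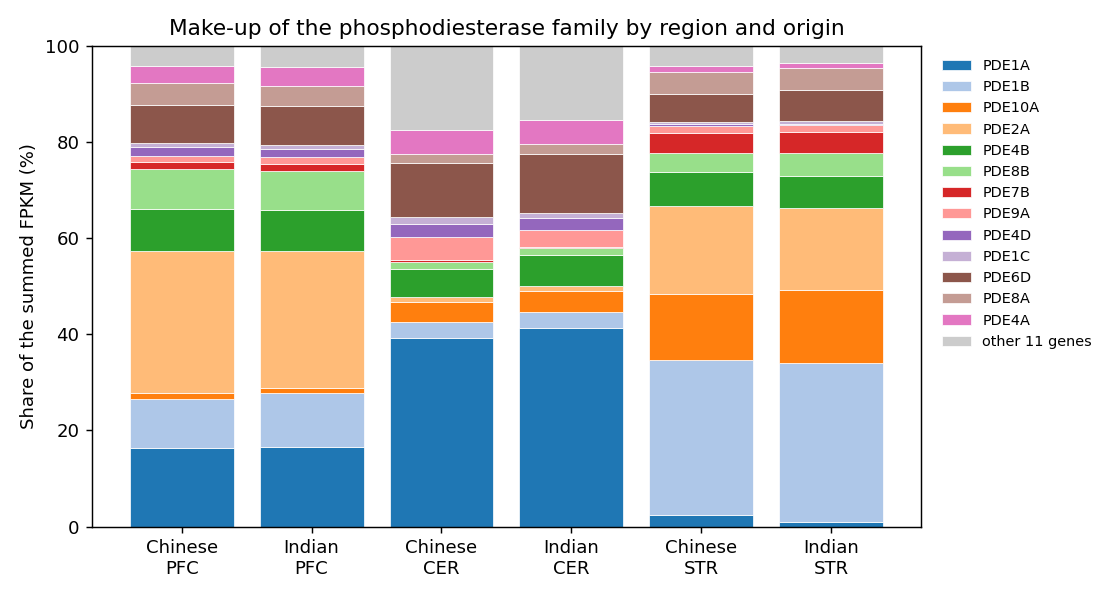
Share of the summed FPKM of 24 phosphodiesterase genes taken by each gene, in percent, for each region and origin. Each bar sums to 100%, and the grey part holds the other 11 genes. The bars of Chinese and Indian origin resemble each other in every region, with PDE2A leading in PFC, PDE1A in CER and PDE1B in STR.

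Of the 14 other genes, PDE6D, PDE6G and PDE6H encode subunits with no catalytic site, which leaves 21 enzymes. Enzymes that prefer cAMP made up 33.8% and 33.4% of the summed FPKM of these 21 in PFC, 23.5% and 23.7% in CER, and 24.7% and 24.8% in STR. Enzymes that prefer cGMP (PDE5A, PDE6A, PDE6B, PDE6C and PDE9A) made up 10.5% and 8.80% in CER, against 2.02% and 2.41% in PFC and 2.12% and 2.41% in STR. In CER, PDE5A at 17.5 and 15.3 joined PDE9A. The PDE1 genes made up 49.7% and 52.1% in CER, 37.8% and 37.3% in STR, and 29.8% and 31.1% in PFC.

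Several of the other phosphodiesterases also had 1 region far above the rest. PDE3A and PDE3B, the enzymes inhibited by cGMP, had an FPKM of 14.8 and 10.7, and of 23.5 and 19.7, in CER, but none of their values in PFC or STR exceeded 1.83. PDE5A had 1.012 to 1.38 outside CER. PDE6H, the inhibitory subunit of the cone photoreceptor enzyme, was listed at 12.7 and 7.55 in STR, and at 0.195 or lower in the other regions. PDE6B, a catalytic subunit of the rod enzyme, was also highest in STR, at 3.98 and 4.203. PDE8A resembled its relative PDE8B in being lowest in CER, with 8.45 and 7.90 there against 41.4 and 33.1 in STR, and its status entry was likewise a failed test. PDE6D, a carrier of prenylated proteins, was nearly even, from 36.5 to 51.2. The remaining genes were PDE4A, from 7.74 to 21.6, PDE7A, from 5.65 to 15.1, PDE4C, from 0.507 to 5.94, and PDE11A, from 1.38 to 4.18. PDE6A, PDE6C and PDE6G stayed below 1 in every column.

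Chinese-origin and Indian-origin monkeys were then compared within each region. For genes that reached 1 FPKM in either origin, the log2 ratio of Chinese over Indian origin had a median of 0.31 in STR, 0.19 in PFC and 0.10 in CER. As deposited, Chinese-origin values were higher for all 10 phosphodiesterases in PFC and in STR and for 9 of them in CER, the exception being PDE4B. In PFC, CER and STR, 83.7%, 71.1% and 87% of all genes were higher, respectively. Ratios below are therefore given relative to the median of the region unless stated otherwise, and a gene was counted when it passed 1.5-fold. As deposited, none of the 10 genes was past 1.5-fold lower in Chinese-origin PFC, CER or STR, where 4.86%, 5.57% and 4.01% of all genes were. All 10 genes had an FPKM of at least 1 in both origins of every region.

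In PFC, 0 of the 10 genes passed 1.5-fold, where 11.6% of all genes did, 5.64% higher and 5.94% lower in Chinese-origin monkeys. As deposited the count was also 0, with 8.14% of all genes past 1.5-fold higher. The log2 ratios ran from -0.12 for PDE1C to 0.18 for PDE4D, with a median of 0.05. The middle 90% of all genes lay between -0.75 and 0.69. Among the other phosphodiesterases in PFC, PDE6B was the 1 past 1.5-fold, lower in Chinese-origin monkeys, with an FPKM of 1.31 against 1.90 and a log2 ratio of -0.69. As deposited, this difference did not reach 1.5-fold.

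In CER, 0 of the 10 genes passed 1.5-fold relative to the median, where 13.2% of all genes did, 6.7% higher and 6.46% lower. PDE9A and PDE1C came closest. PDE9A was listed at 21.4 FPKM for Chinese and 13.8 for Indian origin, a log2 ratio of 0.53, and PDE1C at 6.08 and 4.02, a log2 ratio of 0.49. These ratios lay at percentiles 92.7 and 92.2 of all genes. As deposited, both genes were past 1.5-fold (1.55 and 1.51), as were 7.81% of all genes in that direction. The other 8 genes ran from -0.14 for PDE4B to 0.16 for PDE4D. Markers of the choroid plexus were lower in the same Chinese-origin CER. Their summed FPKM was 659 against 2102, and each of the 6 was past 1.5-fold lower. TTR, which encodes transthyretin, accounted for 639.7 and 2059.5 of the sums. The shift was not confined to CER. Of the choroid plexus markers that reached 1 FPKM, 1 of 2 in PFC and 2 of 3 in STR were also past 1.5-fold lower. The shares of all genes were 5.94% and 5.59%. The part of the choroid plexus markers in the PDE9A and PDE1C values was not tested.

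In STR, 1 of the 10 genes passed 1.5-fold relative to the median, PDE1A, where 14% of all genes did, 8.36% higher and 5.59% lower. The levels of 21.0 and 7.07 FPKM gave a ratio of 2.97. The log2 ratio relative to the median was 1.248, at percentile 95.8 of all genes. PDE4D, with 4.10 and 2.33, had a log2 ratio of 0.48 and did not pass. As deposited its ratio was 1.76, past 1.5-fold along with PDE1A and 19.1% of all genes in that direction. The genes of highest level in STR differed little between origins relative to the median. PDE1B lay at -0.04, PDE10A at -0.14, PDE7B at -0.09 and PDE2A at 0.10. PDE8B was the lowest, at -0.26.

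**Figure D4:**
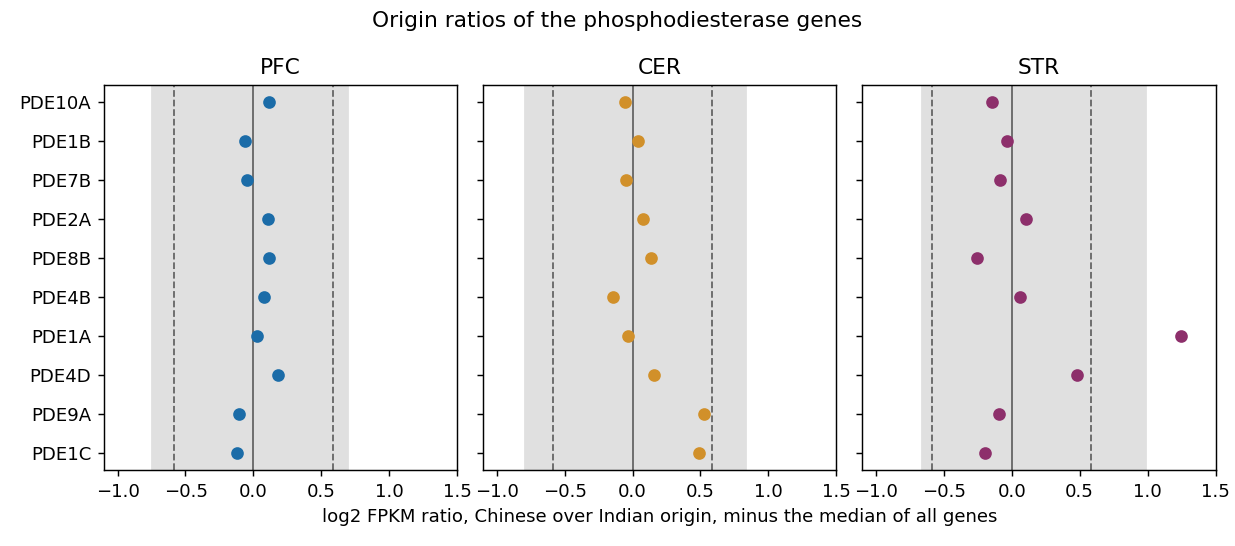
Log2 FPKM ratio of Chinese over Indian origin for the 10 genes, less the median of all genes of the region, in PFC, CER and STR. Each point is 1 ratio of pooled values, the grey band holds the middle 90% of all genes, and dashed lines mark 1.5-fold. PDE1A in STR, at 1.248, is the 1 point beyond a dashed line, and PDE9A and PDE1C in CER lie just inside.

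The Chinese-origin STR, in which PDE1A was higher, also had higher levels of excitatory cortical neuron markers. Of the 10 markers, 8 were past 1.5-fold higher relative to the median and 10 lay above it. In STR, 8.36% of all genes were past 1.5-fold higher and 5.59% lower, and the STR counts below stand against these shares. Their median log2 ratio was 1.75. Their summed FPKM was 216 against 117, of which LAMP5, the marker higher in STR than in PFC, accounted for 122 and 94.7. SLC17A7, which loads glutamate into synaptic vesicles, was at 59.6 and 12.2 FPKM in STR, and TBR1 at 4.82 and 0.93. The markers that did not pass were FEZF2 (4.597 and 2.67) and LAMP5 (122 and 94.7). In PFC, the same markers had a median log2 ratio of 0.04 between origins. PDE1A had a higher level in PFC than in STR, as 9 of the 10 markers did, and PDE4D likewise. The 10 striatal markers had a median log2 ratio of -0.16 in STR, and 0 of them passed 1.5-fold. None of the markers of oligodendrocytes, astrocytes, microglia or endothelium passed in STR, with median log2 ratios of -0.05, -0.12, 0.10 and 0.18. Of 7 cerebellar markers that reached 1 FPKM in STR, 2 were past 1.5-fold higher and 1 lower. Of 3 such choroid plexus markers, 2 were past 1.5-fold lower. The part of the cortical markers in the PDE1A and PDE4D values was not tested.

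**Figure D5:**
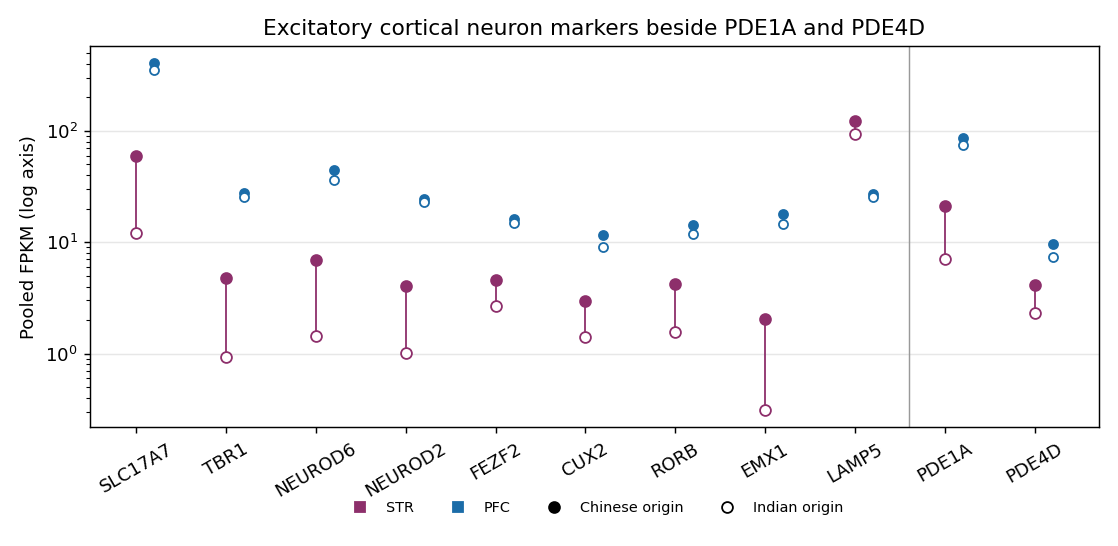
Pooled FPKM on a log axis of 9 of the 10 markers of excitatory cortical neurons, and of PDE1A and PDE4D, in STR (purple) and PFC (blue). Filled points are Chinese-origin and open points Indian-origin values. In STR the filled point is above the open point for every gene shown, while in PFC the points lie closer together.

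The genes with the profile nearest to each region-marked phosphodiesterase were sought over the 6 pooled columns, by the Euclidean distance of log2(FPKM + 0.1) less the gene's own mean. For PDE10A they were BSPRY (distance 0.36), RGS9 (0.59) and GPX2 (0.87), of which RGS9, also 1 of the striatal markers, is a regulator of G protein signaling in the striatum with an FPKM of 111 and 103 in STR. For PDE1B they were KIAA0922 (0.34), the kinase gene DGKB (0.36) and ARPP19 (0.51), a phosphoprotein substrate of protein kinase A. For PDE7B they were ETNK2 (0.48), KIAA0922 (0.51) and HPCA (0.54), the last encoding the calcium sensor hippocalcin. For PDE2A they were NETO1 (0.27), C2orf80 (0.28) and ICAM1 (0.36). For PDE8B they were NPY1R (0.37), COBL (0.38) and OLFM2 (0.39).
PDE1A had GALNT9 (0.40), ST8SIA5 (0.50) and NPTX1 (0.53) as its nearest genes. NPTX1, which encodes a neuronal pentraxin, had an FPKM of 230 and 192 in CER, 109.8 and 94.6 in PFC, and 21.7 and 6.13 in STR. GALNT9 had 9.51 and 3.70 in STR. Both had the region order of PDE1A and a higher level in Chinese-origin STR. This follows from how they were picked, since the distance was taken over these same columns. The columns share monkeys and runs, so these distances are a description only.

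Other genes of cyclic nucleotide signaling were read from lists of enzymes, receptors and targets. Between STR and PFC, 3.52% of all genes were at least 2-fold higher in STR and 4.98% lower. The counts of the lists below stand against these shares. Among 10 adenylyl cyclases, which make cAMP, 1 was at least 2-fold higher in STR than in PFC in both origins, ADCY5, with an FPKM of 221 and 175 in STR against 44.6 and 46.2 in PFC. ADCY2 was the 1 lower gene, with 22.3 and 13.1 in STR against 62.9 and 53.3 in PFC. ADCY1, a calmodulin-stimulated cyclase, was the 1 cyclase past 1.5-fold by origin relative to the median. It was higher in Chinese-origin STR (25.2 against 12.5), where 14% of all genes passed. All 10 cyclases lay above the median there. As deposited, ADCY2 (22.3 against 13.1), ADCY4 (1.55 against 0.84) and ADCY7 (3.64 against 2.31) also passed 1.5-fold in STR. So did 19.1% of all genes in that direction. Among 11 measured targets and regulators, PPP1R1B, ARPP19 and ARPP21 were at least 2-fold higher in STR than in PFC. PPP1R1B, which encodes DARPP-32, had an FPKM of 1165 and 1022 in STR against 117 and 109.9 in PFC. Of 6 measured G protein alpha subunits, GNAL, which couples striatal receptors to adenylyl cyclase, was the 1 at least 2-fold higher in STR, at 114 and 83.0 against 27.2 and 21.1 in PFC. PPP1R1B and GNAL are also in the marker list of striatal projection neurons, so their values are not separate from that region check. The cyclase list as a whole had a median log2 ratio of STR over PFC of 0.06.

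In CER, where PDE9A and PDE5A were highest, other genes of the cGMP branch differed from PFC in both directions. Between CER and PFC, 9.32% of all genes were at least 2-fold higher in CER and 11% lower, and the counts of the lists below stand against these shares. NPR1, the natriuretic peptide receptor with guanylyl cyclase activity, had an FPKM of 21.7 and 20.3 in CER and at most 0.65 elsewhere. Of 8 genes of the guanylyl cyclase and nitric oxide list with an FPKM that reached 1, 3 (NPR1, NOS1 and GUCY2D) were at least 2-fold higher in CER than in PFC in both origins, and GUCY1A3 and GUCY2C were lower. NOS1, the neuronal nitric oxide synthase, stood at 8.24 and 6.66 in CER against 2.02 and 1.91 in PFC. GUCY1A3, a subunit of the nitric oxide receptor, had 9.05 and 8.88 in CER against 24.2 and 18.2 in PFC. PKIB, an inhibitor of protein kinase A, had 124 and 129 in CER, where its status entry is a failed test, against 9.08 and 7.34 in PFC. Of 10 measured protein kinase A and G genes, PKIB and PRKG1 were higher and PRKAR2B, PRKG2 and PKIG lower in CER than in PFC. PRKAR2B, a regulatory subunit of protein kinase A, had 11.9 and 11.6 in CER against 49.9 and 43.0 in PFC. Of 10 effectors of other kinds that reached 1 FPKM, 4 were lower in CER than in PFC, POPDC3, RAPGEF3, RAPGEF4 and HCN2, and none was higher. Of 9 measured anchoring proteins of protein kinase A, AKAP9 and AKAP12 were higher in CER and none was lower. Between STR and PFC 0 of the 9 passed, where 3.52% of all genes were higher and 4.98% lower in STR.

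By origin, the share of all genes past 1.5-fold was 14% in STR, 13.2% in CER and 11.6% in PFC. PRKG1, the cGMP-dependent kinase, was lower in Chinese-origin PFC (2.56 against 3.69) and higher in Chinese-origin STR (4.37 against 2.26). As deposited, the difference in PFC did not reach 1.5-fold. Relative to the median, no anchoring protein, guanylyl cyclase, nitric oxide synthase, target or G protein gene that reached 1 FPKM passed in any region. As deposited, NOS1 (5.75 against 3.66), NPR2 (11.7 against 7.66), AKAP13 (7.52 against 4.86) and DISC1 (1.16 against 0.67) passed in STR. All were higher in Chinese-origin monkeys, where 19.1% of all genes were past 1.5-fold higher as deposited.

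The positions of the genes in mmul1 were those of the authors' deposited table, whose entries span whole loci. PDE10A (ENSMMUG00000023614) lies on chromosome 4 from 162106796 to 162448136 and PDE7B (ENSMMUG00000003708) on the same chromosome from 127648395 to 127978584. PDE1A (ENSMMUG00000001163) lies on chromosome 12 from 45758999 to 46154294. PDE2A (ENSMMUG00000015051) lies on chromosome 14 from 70660708 to 70694965. PDE4B (ENSMMUG00000007490) lies on chromosome 1 from 68711829 to 69158523. PDE4D (ENSMMUG00000012132) lies on chromosome 6 from 56645157 to 57661231. PDE9A (ENSMMUG00000022107) and PDE1C (ENSMMUG00000001625) lie on chromosome 3, from 3901083 to 4020039 and from 93932603 to 94478332.
PDE1B (ENSMMUG00000000111) shares its entry on chromosome 11, from 51666992 to 51706040, with PPP1R1A, an inhibitor of protein phosphatase. PPP1R1A was also highest in STR, with an FPKM of 402 and 415. The sources used here do not state strand in counting, so reads from overlapping parts of the pair may not be separable and the levels of PDE1B are uncertain to that extent. The row named PDE8B (ENSMMUG00000021358, chromosome 6 from 73567316 to 73664780) carries the name AGGF1 in the reference gene names, while 8 of the 10 identifiers have the same name there and that of PDE2A is not listed. The authors' deposited table has a row of its own for AGGF1, which was higher in CER (33.3 and 32.1) than in PFC (24.7 and 21.8), the reverse of the row named PDE8B. The deposited status entry was a failed test for PDE8B, PDE8A and PDE4A in all 3 regions, for PDE4D in CER and for PDE4C in PFC, although FPKM values are listed.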

How the data were processed

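Libraries of total RNA made with the TruSeq kit were sequenced as single-end reads of 50 bases, 6 libraries per region in 1 lane. Read quality was examined by the authors in FastQC, alignment to mmul1 used TopHat, and expression was estimated by Cuffdiff (version 0.0.5 in the submitters' notes). The annotation version is not given in the sources used here. The authors' deposited tables hold 1 pooled FPKM per gene, region and origin. They also hold the authors' own fold changes, test statistics, p-values and q-values, which were not used here. Library depth cannot be read from these values, so no counting interval or floor is given.

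Of 30246 rows per table, 1 duplicate row in STR was left out. Log2 ratios used FPKM + 0.1, less the median of genes that reached 1 FPKM. Genes were counted past 1.5-fold between origins, or past 2-fold between regions in both origins. The text names the 10 genes, other phosphodiesterases, up to 4 genes per list and comparison past these folds, the 3 nearest profiles and markers that bear on a result. The genes and the 8 pathway and 8 marker lists were chosen with earlier results of these data known. Some genes of these lists are counted but not reported by name. The ratio step was checked on simulated data. Python 3.11.15, numpy 2.4.6, pandas 2.3.3 and matplotlib 3.10.9 were used.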

Additional observations from a re-analysis of the deposited data

Results flagged for a closer look

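PRKG1, the cGMP-dependent protein kinase, was the 1 gene of 91 in the phosphodiesterase family and pathway lists that passed 1.5-fold in opposite directions in different regions. Relative to the median, its log2 ratio of Chinese over Indian origin was -0.70 in PFC and 0.61 in STR. As deposited, the difference in PFC did not reach 1.5-fold, so that the opposite directions at that threshold rest on subtraction of the median. The difference between the regions was not tested, since each value is a ratio of pooled values.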

How the results depend on the processing

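No paired analysis was possible because each deposited value is pooled over the monkeys of an origin and carries no replicate number, and for the same reason no monkey was left out in turn. Of 54 recomputed counts of the 10 genes, some of which could not change, 49 stayed within 1.5 times the reported count. Without subtraction of the median, 2 genes passed 1.5-fold in CER (PDE1C and PDE9A) and 2 in STR (PDE1A and PDE4D). At the lower fold threshold tried between origins, 2 genes passed in CER and 2 in STR, and they were these 4 genes. At 1.5-fold between CER and PFC, 8 genes passed instead of 5, with PDE1A, PDE4B and PDE9A added. Without the median, PDE4B no longer passed 2-fold between STR and CER (7 genes instead of 8). PDE9A then passed 2-fold between CER and PFC in both origins (6 genes instead of 5). PDE1A in STR passed 1.5-fold, or the fold tried in its place, under each alternative, and passed 2-fold as well. Single ratios moved by 0.1 or more in 20 of 30 cases without the median, in 1 of 30 with a pseudocount of 1, and in none with a pseudocount of 0.01. The 20 cases were fixed in advance, since without the median all ratios of a region move by the same amount. That amount was 0.193 in PFC and 0.310 in STR, but 0.0988 in CER. Each of the 10 genes had 1 row, so summing rows changed nothing. Chosen after the data were seen, a median of genes that reached 10 FPKM changed no count between origins, and in Chinese-origin monkeys alone 7 genes passed 2-fold between CER and PFC.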
